A study of Mus musculus with 8 samples.

Results

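The genes described here encode 10 enzymes and helper proteins that turn arachidonic acid into prostaglandins, thromboxane and leukotrienes. They were taken by gene symbol from a list of Ptgs1, Ptgs2, Ptges, Tbxas1, Hpgds, Alox5, Alox5ap, Ltc4s, Lta4h and Pla2g4a, with no filter on their measured values. The list was chosen with earlier results of these data known. All 10 were found among the 15521 genes of the deposited table, and all 10 passed the filter on low counts that left 11621 genes to be tested. Alveolar macrophages, the phagocytes of the airspaces, had been lavaged from mouse lungs, purified by adherence for 2 h and kept with GM-CSF at 10 ng/ml, so that every group carries this growth factor. Bulk RNA-seq gave 8 libraries in 4 groups of 2. The first group received MSDC at 10 µM for 2 h and then Poly(I:C) at 5 µg/mL, the second DMSO vehicle and then Poly(I:C), the third MSDC without Poly(I:C) and the fourth vehicle without Poly(I:C). Poly(I:C) is a synthetic double-stranded RNA that mimics viral RNA, and the sample labels give its exposure as 24 h where the series description says overnight. No harvest time is given here for the groups without Poly(I:C). If they were harvested earlier, time in culture cannot be told apart from Poly(I:C) wherever cells with and without it are compared. The name MSDC is a prefix shared by code-named inhibitors of the mitochondrial pyruvate carrier, and which of them was used is not stated. The labels give no mouse strain, age or sex, and they do not say whether libraries of a group came from separate animals or cultures, so the p-values rest on a spread between libraries that may be technical.

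Eicosanoids are made in a branching pathway. Cytosolic phospholipase A2 frees arachidonic acid from membranes, the cyclooxygenases COX-1 and COX-2 turn it into prostaglandin H2, and terminal synthases turn that into prostaglandin E2, prostaglandin D2 or thromboxane A2. On the other branch 5-lipoxygenase, helped by the protein FLAP, makes leukotriene A4, from which one enzyme makes the neutrophil attractant leukotriene B4 and another the cysteinyl leukotriene C4. Macrophages of the airspaces are known as a source of leukotrienes and thromboxane in the lung.

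Each library held 28762425 to 29493223 estimated counts, and the counts of the 10 genes ranged from 13 to 7041. The 2 vehicle libraries differed most from each other, with a chi-square per degree of freedom of 14.7 across genes, against 4.26 to 6.30 between the libraries of the other groups. All 11 defining markers of alveolar macrophages were above 1 TPM in every group. Their summed level, most of it Lyz2, was 47310 to 47610 TPM in Poly(I:C) with MSDC, 47630 to 48680 TPM in Poly(I:C) with vehicle, 45720 to 45950 TPM in MSDC alone and 51760 to 51920 TPM in vehicle alone, but single markers differed widely between groups. With MSDC 6 of the 11 rose and 4 fell, with and without Poly(I:C), and with Poly(I:C) 3 rose and 0 fell in MSDC and 3 rose and 3 fell in vehicle. Siglecf was not called in any of these comparisons, at 231.9 to 261.0 TPM over all libraries. Levels are in TPM, reads scaled to gene length and to the library, so genes can be compared with each other, and a value is given as mean ± SD over the 2 libraries of a group. Changes are on the log2 scale, with their standard error (SE), and come from edgeR's quasi-likelihood test on the counts. A change was called where its p, adjusted over all 11621 genes by Benjamini and Hochberg's method, was under 0.05.

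In resting cells given vehicle the leukotriene branch and thromboxane synthase stood far above the cyclooxygenases. In the order of their mean TPM in vehicle alone the genes were Alox5ap (443.1 ± 24.4), Lta4h (188.7 ± 1.62), Tbxas1 (158.1 ± 4.23), Ltc4s (130.9 ± 6.02), Alox5 (122.5 ± 8.43), Pla2g4a (40.9 ± 2.14), Ptgs1 (5.28 ± 0.615), Ptges (4.06 ± 0.290), Hpgds (3.79 ± 0.0354) and Ptgs2 (0.28 ± 0.0283). Ltc4s and Alox5 overlapped in the vehicle libraries, and each other gene lay above the next one in both. In cells given MSDC alone Ltc4s, at 307 ± 22.8 TPM, overlapped with Alox5ap, at 310.3 ± 1.39 TPM, at the top of the order, and Ptges and Hpgds stood above Ptgs1. In Poly(I:C) with MSDC, Alox5ap and Ltc4s again stood at the top, and Hpgds and Ptges overlapped with each other. In Poly(I:C) with vehicle the first 6 genes kept the order of vehicle alone, with Ltc4s and Alox5 overlapping again, and Ptges and Hpgds, at 3.97 ± 0.233 and 3.54 ± 0.240 TPM, stood above Ptgs1.

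**Figure D1:**
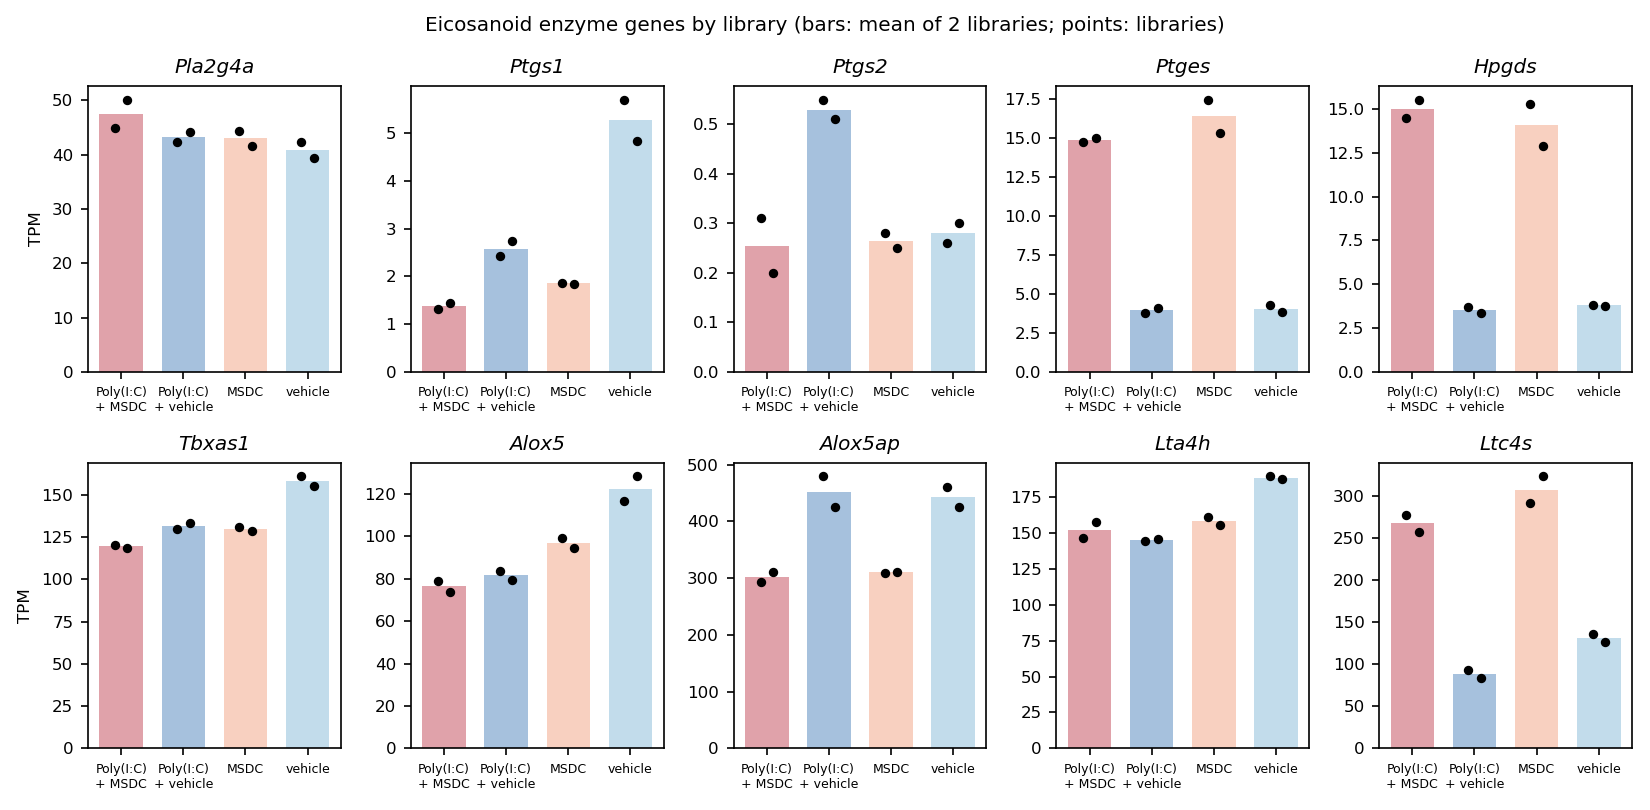
TPM of the 10 genes in Poly(I:C) with MSDC, Poly(I:C) with vehicle, MSDC alone and vehicle alone, with bars at the mean of 2 libraries and points at the libraries. Ptges, Hpgds and Ltc4s are high in all 4 libraries with MSDC (Ptges 14.7 to 17.5 TPM) and low in all 4 without it (Ptges 3.80 to 4.26 TPM), and Ptgs1 is highest in vehicle alone.

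With MSDC the terminal synthases Ptges, Hpgds and Ltc4s rose between 2.39-fold and 4.12-fold with and without Poly(I:C), while Ptgs1 and Alox5ap, which act upstream of them, fell in both settings. The other terminal enzymes, Tbxas1 and Lta4h, did not rise: both fell in unstimulated cells, and neither was called in stimulated cells. Pla2g4a, at the head of the pathway, was not called in either setting. Of the 10 genes 3 rose and 2 fell with MSDC in Poly(I:C)-stimulated cells, where 26.1% of all tested genes were called (12.5% higher and 13.6% lower). In unstimulated cells 3 rose and 5 fell with MSDC, where 23.5% of all tested genes were called (11.1% higher and 12.4% lower). Their median log2 fold change was -0.05 with Poly(I:C) and -0.14 without it, against 0.00 over all tested genes in both comparisons. These 2 comparisons share no library, but both were tested in a single fit with a shared estimate of the spread. Several alveolar macrophage markers moved with MSDC along with these genes. Marco, a scavenger receptor, had 855.1 and 876.5 TPM in Poly(I:C) with MSDC against 280.3 and 258.6 TPM in Poly(I:C) with vehicle, and rose by 1.65 there (SE 0.09, adjusted p = 1.04e-09) and by 1.53 in unstimulated cells (SE 0.09, adjusted p = 2.36e-09). Fabp4, a fatty acid binding protein, rose by 1.61 and 1.42, Krt79 by 3.71 and 3.85 and Ear2 by 1.17 and 1.41. Ear1, which closely resembles Ear2 so that reads could be split between them, rose by 3.70 and 3.78, and Mrc1 by 0.38 and 0.32. Chil3 fell by 0.58 and 0.82, Itgax by 0.43 and 0.43, Car4 by 0.37 and 0.25 and Lyz2 by 0.20 and 0.26. The part of these marker changes in those of the eicosanoid genes was not tested.

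Ptges encodes microsomal prostaglandin E synthase-1, the inducible enzyme that makes prostaglandin E2. Its level was 14.7 and 15.0 TPM in the 2 libraries of Poly(I:C) with MSDC, against 3.80 and 4.13 TPM in those of Poly(I:C) with vehicle. It was 17.5 and 15.3 TPM in MSDC alone, against 4.26 and 3.85 TPM in vehicle alone. Every library with MSDC stood above every library without it. Ptges rose by 1.87 on the log2 scale in stimulated cells (SE 0.11, adjusted p = 2.61e-09, 3.67-fold) and by 2.04 in unstimulated cells (SE 0.11, adjusted p = 1.15e-09, 4.12-fold). Among the 11621 tested genes these were the rises of rank 115 and rank 98.

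Hpgds encodes hematopoietic prostaglandin D synthase, the glutathione-using enzyme that makes prostaglandin D2 in immune cells and is well known from mast cells. The gene had 14.5 and 15.5 TPM in Poly(I:C) with MSDC, against 3.71 and 3.37 TPM in Poly(I:C) with vehicle. Without Poly(I:C) it had 15.3 and 12.9 TPM in MSDC, against 3.81 and 3.76 TPM in vehicle. The libraries separated by MSDC as they did for Ptges, with no overlap. The rise was 2.01 in stimulated cells (SE 0.12, adjusted p = 2.86e-09, 4.02-fold) and 1.94 in unstimulated cells (SE 0.12, adjusted p = 4.7e-09, 3.85-fold). Of 11 markers of mast cells and basophils 3 were in the table, and their summed level was 0.23 to 0.40 TPM in Poly(I:C) with MSDC, 0.45 to 0.58 TPM in Poly(I:C) with vehicle, 0 to 0.05 TPM in MSDC alone and 0.02 to 0.06 TPM in vehicle alone, so that each was near 0 in every library.

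Ltc4s encodes leukotriene C4 synthase, which joins leukotriene A4 to glutathione. It had 276.9 and 257.1 TPM in Poly(I:C) with MSDC, against 92.9 and 83.0 TPM in Poly(I:C) with vehicle. It had 290.9 and 323.1 TPM in MSDC alone, against 135.2 and 126.7 TPM in vehicle alone. Eosinophils are known for this enzyme, and the summed level of the 3 of 6 eosinophil markers in the table was 0.67 to 1.80 TPM in Poly(I:C) with MSDC, 1.03 to 1.44 TPM in Poly(I:C) with vehicle, 0.75 to 1.00 TPM in MSDC alone and 0.98 to 2.11 TPM in vehicle alone. Again no library with MSDC overlapped with one without it, and the libraries of Poly(I:C) with vehicle lay below those of vehicle alone. Ltc4s rose by 1.57 with MSDC in stimulated cells (SE 0.08, adjusted p = 1.04e-09, 2.97-fold) and by 1.26 in unstimulated cells (SE 0.08, adjusted p = 9.28e-09, 2.39-fold). An annotated antisense gene on the other strand shares 26.4% of the exonic bases of Ltc4s in GENCODE M21, and without a stated strand setting in the authors' counting, reads of the pair cannot be told apart. In bulk RNA, fewer cells of a type and less RNA per cell cannot be told apart either, which holds for every change given here.

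The start regions of these 3 genes are shown because the genes moved together. Each window runs 5′ to 3′ from 250 bases before to 50 bases after a RefSeq start on GRCm38.p6, and capitals mark matches to the motifs searched on both strands. The Ptges window lies on the minus strand at chr2:30903248-30903547, that of Hpgds on the minus strand at chr6:65144681-65144980 and that of Ltc4s on the minus strand at chr11:50238483-50238782. The windows of Ptges and Hpgds lie inside the annotated genes (chr2:30889471-30931020 and chr6:65117293-65144981), so their starts are not the outermost ones.
Ptges: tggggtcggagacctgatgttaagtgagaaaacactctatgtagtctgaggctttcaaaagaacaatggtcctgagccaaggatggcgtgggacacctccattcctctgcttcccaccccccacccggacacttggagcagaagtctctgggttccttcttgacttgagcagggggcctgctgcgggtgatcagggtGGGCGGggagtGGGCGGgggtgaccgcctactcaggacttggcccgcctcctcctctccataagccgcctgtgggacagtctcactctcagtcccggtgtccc
Hpgds: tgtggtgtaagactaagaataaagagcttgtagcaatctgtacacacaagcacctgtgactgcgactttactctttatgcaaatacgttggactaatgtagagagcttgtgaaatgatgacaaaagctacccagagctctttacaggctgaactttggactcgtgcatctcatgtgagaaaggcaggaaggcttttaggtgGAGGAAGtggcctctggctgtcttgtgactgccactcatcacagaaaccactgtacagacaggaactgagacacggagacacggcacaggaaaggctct
Ltc4s: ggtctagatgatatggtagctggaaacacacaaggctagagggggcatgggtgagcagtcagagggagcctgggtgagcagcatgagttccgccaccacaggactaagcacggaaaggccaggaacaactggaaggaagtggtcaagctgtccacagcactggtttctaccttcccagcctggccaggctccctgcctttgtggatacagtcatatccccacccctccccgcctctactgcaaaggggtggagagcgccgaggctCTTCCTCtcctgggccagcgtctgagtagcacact
The Ptges window held the GC box GGGCGG at 2 places, starting 53 and 42 bases before the start, a motif present in 35.7% of all 32851 windows. The Hpgds window held GAGGAAG, a core recognised by the macrophage factor PU.1, beginning 49 bases before the start, and the Ltc4s window held it on the opposite strand at bases 16 to 22 after the start, against 13.6% of all windows. None of the 3 held the nuclear receptor core AGGTCA (16.3% of windows), TATAAA (13.6%), the interferon response core, 2 copies of GAAA set 2 bases apart (3.44%), or the cAMP response element TGACGTCA (1.79%). Neither of the motifs found was particular to genes that rose with MSDC. GAGGAAG also lay in the windows of Ptgs1 and Tbxas1, which fell with MSDC in unstimulated cells, and GGGCGG in those of Alox5 and Ptgs2. These are matches of letters in a short window, and binding was not measured.

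Pla2g4a, which encodes the cytosolic phospholipase A2 that supplies arachidonic acid, differed little between groups. It had 45.0 and 50.2 TPM in Poly(I:C) with MSDC against 42.3 and 44.2 TPM in Poly(I:C) with vehicle, and 44.4 and 41.7 TPM in MSDC alone against 42.4 and 39.4 TPM in vehicle alone. No comparison passed the test, and the change with MSDC was 0.10 in stimulated cells (95% interval -0.05 to 0.26) and 0.10 in unstimulated cells (-0.06 to 0.26).

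Ptgs1, the gene of the constitutive cyclooxygenase COX-1, was the one member whose called fall reached 2-fold in any comparison. It had 1.32 and 1.45 TPM in Poly(I:C) with MSDC, against 2.43 and 2.74 TPM in Poly(I:C) with vehicle, and 1.86 and 1.85 TPM in MSDC alone, against 5.71 and 4.84 TPM in vehicle alone. The 4 groups did not overlap, and the lowest 4 libraries were those with MSDC. Ptgs1 fell by 0.93 on the log2 scale in stimulated cells (SE 0.20, adjusted p = 0.00195; 0.59 on the log2(TPM + 1) scale) and by 1.50 in unstimulated cells (SE 0.18, adjusted p = 8.41e-06). As platelets are rich in COX-1, markers of platelets and megakaryocytes were examined: 9 of 10 were in the table, with sums of 15.8 to 19.4 TPM in Poly(I:C) with MSDC, 27.0 to 27.3 TPM in Poly(I:C) with vehicle, 10.9 to 12.2 TPM in MSDC alone and 22.9 to 23.6 TPM in vehicle alone. Nearly all of it was Pf4, at 10.4 to 26.6 TPM, a gene that macrophages also express. The other 8, such as Itga2b and Gp1ba, stayed below 1 TPM in every library, and the part of Pf4-expressing cells in the change of Ptgs1 was not tested.

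Ptgs2, the gene of the inducible COX-2, was hardly expressed. It had 21 and 13 counts in Poly(I:C) with MSDC (0.31 and 0.20 TPM), 38 and 34 counts in Poly(I:C) with vehicle (0.55 and 0.51 TPM), 19 and 17 counts in MSDC alone and 17 and 21 counts in vehicle alone. Poly(I:C) with vehicle held the 2 highest libraries and the other 3 groups overlapped. No difference passed the test: MSDC over vehicle in stimulated cells was -1.08 (SE 0.41, adjusted p = 0.0668), and Poly(I:C) over unstimulated cells in vehicle was 0.98 (SE 0.40, adjusted p = 0.145). The intervals are wide at these counts, at -1.95 to -0.20 for the first and 0.12 to 1.84 for the second. Ptgs2 and Pla2g4a are close on chromosome 1, with 138740 bases between them.

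Tbxas1 encodes thromboxane A synthase. It had 120.5 and 118.5 TPM in Poly(I:C) with MSDC against 129.6 and 133.5 TPM in Poly(I:C) with vehicle, and 130.7 and 128.9 TPM in MSDC alone against 161.1 and 155.1 TPM in vehicle alone. The groups of each pair did not overlap, but the differences were small. Tbxas1 fell by 0.26 with MSDC in unstimulated cells (SE 0.06, adjusted p = 0.0041). In stimulated cells the difference was -0.17 (SE 0.06, adjusted p = 0.0546), which was called without vehicle replicate 1 (adjusted p = 0.0252), without vehicle replicate 2 (0.0253), with DESeq2 (0.0445) and with the 2 groups alone (0.047).

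The leukotriene genes upstream of Ltc4s did not follow it. Alox5ap, which encodes the 5-lipoxygenase activating protein FLAP, had 293.1 and 311.1 TPM in Poly(I:C) with MSDC against 479.6 and 425.3 TPM in Poly(I:C) with vehicle. It had 309.3 and 311.3 TPM in MSDC alone against 460.4 and 425.9 TPM in vehicle alone. All 4 libraries with MSDC were below all 4 without it, and Alox5ap fell by 0.61 in stimulated cells (SE 0.07, adjusted p = 5.06e-06) and by 0.49 in unstimulated cells (SE 0.07, adjusted p = 6.37e-05). An antisense gene shares 13.3% of its exonic bases. Neutrophils also express the 5-lipoxygenase genes, and 6 of 11 neutrophil markers were in the table, with sums of 38.8 to 55.8 TPM in Poly(I:C) with MSDC, 58.7 to 60.6 TPM in Poly(I:C) with vehicle, 43.1 to 53.6 TPM in MSDC alone and 55.6 to 57.6 TPM in vehicle alone. Most of each sum was S100a8, at 24.85 to 46.05 TPM over all libraries, and Mmp8, at 3.29 to 29.89 TPM. Csf3r was at 0.99 to 2.65 TPM, and Camp, Ltf and Cxcr2 stayed below 1 TPM. The part of neutrophils in the change of Alox5ap was not tested.

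Alox5, the 5-lipoxygenase gene, had 78.9 and 74.0 TPM in Poly(I:C) with MSDC against 83.9 and 79.3 TPM in Poly(I:C) with vehicle, and 99.3 and 94.5 TPM in MSDC alone against 116.6 and 128.5 TPM in vehicle alone. In unstimulated cells it fell by 0.31 with MSDC (SE 0.07, adjusted p = 0.00491, and 0.0527 without MSDC replicate 2), and in stimulated cells the difference was -0.13 (SE 0.07, adjusted p = 0.248). Lta4h encodes leukotriene A4 hydrolase, the enzyme of leukotriene B4, which competes with Ltc4s for the same substrate. It had 146.8 and 158.0 TPM in Poly(I:C) with MSDC against 144.3 and 146.3 TPM in Poly(I:C) with vehicle, and 161.7 and 155.8 TPM in MSDC alone against 189.9 and 187.6 TPM in vehicle alone. Lta4h fell by 0.22 with MSDC in unstimulated cells (SE 0.06, adjusted p = 0.0143), a call lost without MSDC replicate 1 (0.0605) and without MSDC replicate 2 (0.101). In stimulated cells its difference was 0.04 (95% interval -0.10 to 0.17).

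**Figure D2:**
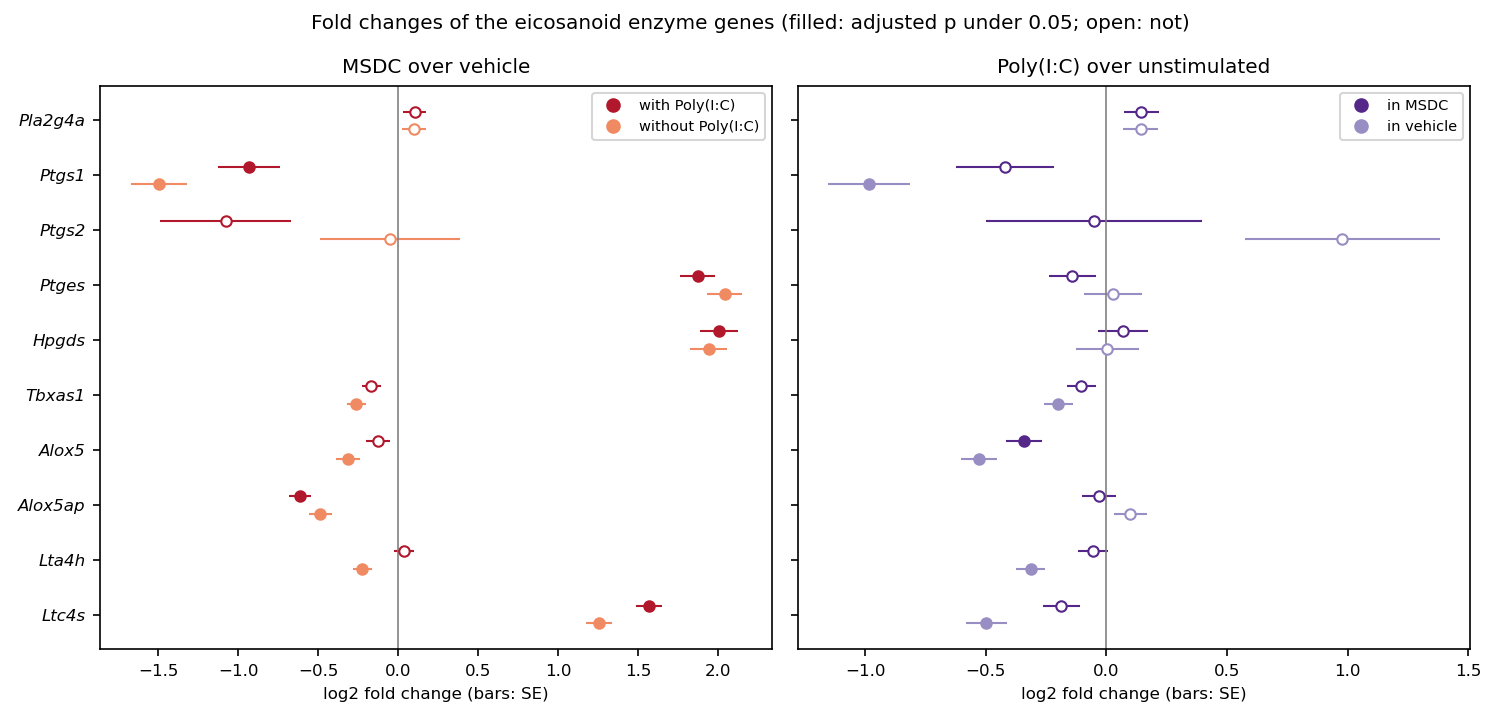
Log2 fold changes of the 10 genes for MSDC over vehicle (left) and Poly(I:C) over unstimulated cells (right), with SE as bars, filled points for an adjusted p under 0.05 and open points otherwise. Ptges, Hpgds and Ltc4s lie at 1.26 to 2.04 on the left with and without Poly(I:C), and no filled point lies above 0 on the right.

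None of the 10 genes was called higher with Poly(I:C). In vehicle-treated cells 5 of 10 fell with Poly(I:C) and 0 rose, where 11.6% of all tested genes were called (7.52% higher and 4.1% lower). Of the calls over all genes 64.7% were higher, against 45.7% with scaling by library totals and 50.5% with limma on log2(TPM + 1), and limma on log2(TPM + 0.1) gave 631 of 1261. Ptgs1 fell by 0.98 (SE 0.17, adjusted p = 0.00087), Alox5 by 0.53 (SE 0.07, adjusted p = 0.000123), Ltc4s by 0.50 (SE 0.08, adjusted p = 0.000794) and Lta4h by 0.31 (SE 0.06, adjusted p = 0.00267). Tbxas1 fell by 0.20 (SE 0.06, adjusted p = 0.0419), a call at the edge of the threshold that was lost when any 1 of 6 libraries was left out in turn. Its adjusted p was 0.185 without the first and 0.0988 without the second library of Poly(I:C) with vehicle, 0.0548 without MSDC replicate 1, 0.0549 without MSDC replicate 2, 0.0546 without vehicle replicate 1 and 0.06 without replicate 1 of Poly(I:C) with MSDC. With the 2 groups alone Tbxas1 was not called either (-0.20, adjusted p = 0.13). The median of the 10 genes was -0.10, against 0.00 over all tested genes. The 3 that also rose with MSDC differed among themselves here, since Ltc4s fell while Ptges (0.03, 95% interval -0.23 to 0.28) and Hpgds (0.00, -0.28 to 0.28) did not pass the test. This comparison and that of MSDC in unstimulated cells share the vehicle libraries.

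In MSDC-treated cells 1 of 10 fell with Poly(I:C) and 0 rose, where 6.32% of all tested genes were called (4.82% higher and 1.5% lower). Alox5 was the one called, at -0.34 (SE 0.07, adjusted p = 0.00945), and its call was lost without MSDC replicate 1 (0.105), without MSDC replicate 2 (0.0547) and without replicate 2 of Poly(I:C) with MSDC (0.148). Ptgs1 changed by -0.42 (SE 0.20, adjusted p = 0.322), Ltc4s by -0.19 (SE 0.08, adjusted p = 0.226) and Lta4h by -0.06 (SE 0.06, adjusted p = 0.746). The median was -0.08, against 0.00 over all tested genes.

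Whether the response to Poly(I:C) depended on MSDC was tested by the interaction, which called 26 of all tested genes (0.224%). It called 0 of the 10 with edgeR, with DESeq2 and with limma on either log2 TPM scale. The unadjusted p was under 0.05 for 2 of them with edgeR, for 2 with DESeq2 and for 4 with limma on each scale. In edgeR these were Lta4h (0.26, SE 0.09, adjusted p = 0.562) and Ltc4s (0.31, SE 0.12, adjusted p = 0.615). The falls of Alox5, Lta4h, Ltc4s and Ptgs1 with Poly(I:C) in vehicle were not shown to differ from the smaller values in MSDC.

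Ratios within a library set the branches side by side. The TPM of Ptges was 11.2 and 10.3 times that of Ptgs1 in Poly(I:C) with MSDC, against 1.56 and 1.51 times in Poly(I:C) with vehicle. It was 9.40 and 8.28 times in MSDC alone, against 0.746 and 0.796 times in vehicle alone. Ltc4s stood at 1.89 and 1.63 times Lta4h in Poly(I:C) with MSDC, against 0.644 and 0.567 times in Poly(I:C) with vehicle, and at 1.80 and 2.07 times in MSDC alone, against 0.712 and 0.675 times in vehicle alone. The synthase of leukotriene C4 was thus the more abundant transcript of the pair in every library with MSDC and the less abundant one in every library without it. Ltc4s over Alox5 was 3.51 and 3.47 in Poly(I:C) with MSDC, against 1.11 and 1.05 in Poly(I:C) with vehicle, and 2.93 and 3.42 in MSDC alone, against 1.16 and 0.986 in vehicle alone. Hpgds stayed well below Tbxas1, at 0.120 and 0.131 of its TPM in Poly(I:C) with MSDC, against 0.0286 and 0.0253 in Poly(I:C) with vehicle, and at 0.117 and 0.0998 in MSDC alone, against 0.0237 and 0.0242 in vehicle alone. Transcript ratios are not ratios of enzyme activity or product, which were not measured here.

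**Figure D3:**
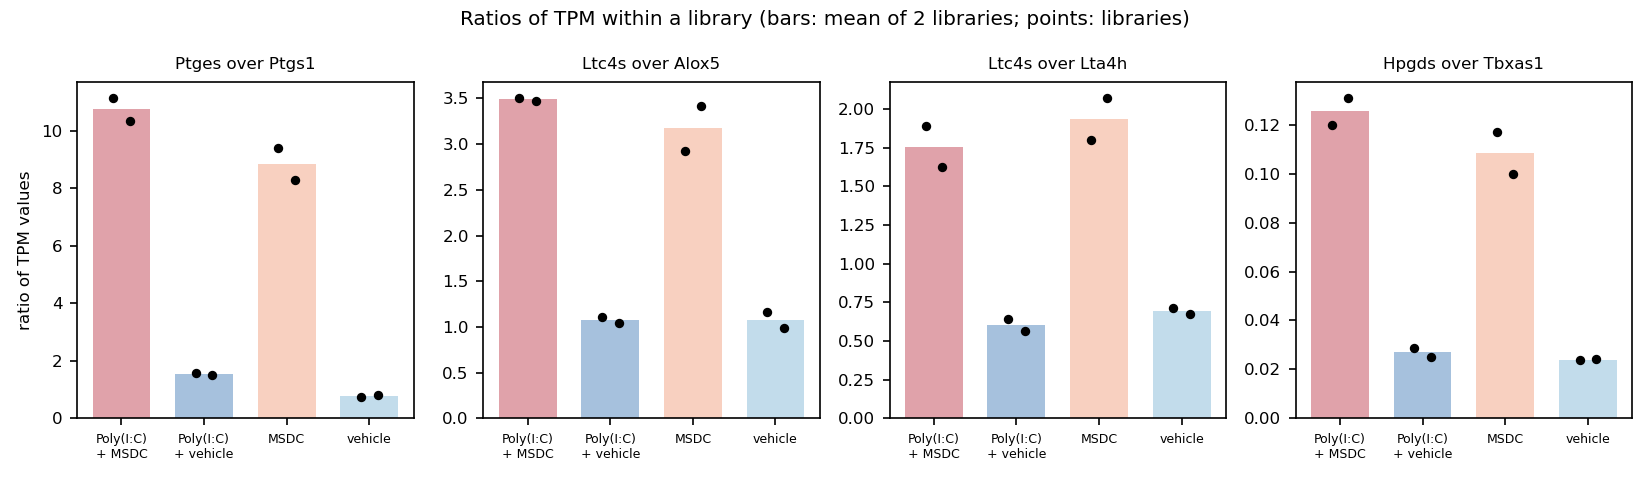
Ratios of TPM between pairs of genes within a library for the 4 groups, with bars at the mean of 2 libraries and points at the libraries. Ptges over Ptgs1 and Ltc4s over Lta4h lie above 1 in all libraries with MSDC, and Ltc4s over Lta4h lies below 1 in all libraries without it.

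Around these enzymes, lists of 102 further genes of the arachidonate pathway were examined, of which 83 were in the table and 62 were tested. With MSDC 22 rose and 15 fell in stimulated cells, and 21 rose and 12 fell in unstimulated cells, with medians of 0.09 and 0.06, against 0.00 over all tested genes. These are 35.5% higher and 24.2% lower in stimulated cells, against 12.5% and 13.6% of all tested genes, and 33.9% higher and 19.4% lower in unstimulated cells, against 11.1% and 12.4%. With Poly(I:C) 5 rose and 2 fell in MSDC (8.06% and 3.23%, against 4.82% and 1.5% of all tested genes), and 8 rose and 8 fell in vehicle (12.9% each, against 7.52% and 4.1%), with medians of -0.02 in both. The interaction called 0 of the 62 with edgeR, 8 of which had an unadjusted p under 0.05.

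Of 6 other prostanoid synthases tested 1 rose, 1 fell and 4 were not called with MSDC in each setting, and of 5 other lipoxygenases and leukotriene genes tested 3 rose, 0 fell and 2 were not called. Against them stand 26.1% of all tested genes called in stimulated cells and 23.5% in unstimulated cells. Akr1b3, an aldose reductase that can make prostaglandin F2alpha, had 609.2 and 661.6 TPM in Poly(I:C) with MSDC against 333.4 and 332.2 TPM in Poly(I:C) with vehicle, and rose by 0.90 (SE 0.06) there and by 0.90 (SE 0.06) in unstimulated cells. It was the 1 synthase that rose. Ptgis, the prostacyclin synthase, fell on few counts, with 1 and 5 counts in Poly(I:C) with MSDC against 43 and 27 in Poly(I:C) with vehicle (-3.49, SE 0.73, adjusted p = 0.00189), and its fall in unstimulated cells (-2.42, SE 0.66, adjusted p = 0.0139) was lost without MSDC replicate 1 (-1.59, adjusted p = 0.15) and was -4.74 without MSDC replicate 2. Mgst2, a microsomal enzyme that can also make leukotriene C4, had 19.4 and 23.2 TPM in Poly(I:C) with MSDC against 10.0 and 10.4 TPM in Poly(I:C) with vehicle, and rose by 1.00 (SE 0.18) there and by 1.16 (SE 0.19) in unstimulated cells. Mgst1 and Cotl1, a binding partner of 5-lipoxygenase, rose too, by 0.76 and 0.50 in stimulated and by 0.96 and 0.51 in unstimulated cells. Mgst3 did not pass the test with MSDC, at -0.17 and -0.12. The lipoxygenases Alox12 and Alox15 were at or near 0, with Alox12 listed at 0 in all 8 libraries and Alox15 at 0.01 to 0.06 TPM.

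Among genes that release or re-esterify arachidonate, 5 of 14 tested hydrolases rose and 4 fell with MSDC in stimulated cells, and 6 rose and 2 fell in unstimulated cells. They were 35.7% higher and 28.6% lower in stimulated cells, against 12.5% and 13.6% of all tested genes, and 42.9% and 14.3% in unstimulated cells, against 11.1% and 12.4%. The endocannabinoid hydrolases Abhd12 and Mgll rose by 1.10 and 0.61 in stimulated and by 1.11 and 0.53 in unstimulated cells, while Daglb, which makes the endocannabinoid 2-arachidonoylglycerol, fell by 0.73 and 0.82. Pla2g7, the secreted hydrolase of platelet-activating factor, fell by 0.50 with MSDC in stimulated cells and was at -0.04 in unstimulated cells (SE 0.11, adjusted p = 0.84). Poly(I:C) raised it by 1.04 in vehicle (SE 0.10, adjusted p = 3.07e-06) and by 0.58 in MSDC (SE 0.11, adjusted p = 0.00238). Its interaction was not called (-0.46, SE 0.15, adjusted p = 0.516). Of 12 tested genes of arachidonate synthesis and esterification 5 rose and 2 fell with MSDC in stimulated cells and 5 rose and 1 fell in unstimulated cells (3 and 0 without MSDC replicate 1). These are 41.7% higher and 16.7% lower in stimulated cells and 41.7% and 8.33% in unstimulated cells, against those shares of all tested genes. Lpcat3, which loads arachidonate onto phospholipids, had 255.7 and 266.5 TPM in Poly(I:C) with MSDC against 140.5 and 124.4 TPM in Poly(I:C) with vehicle, a rise of 0.96 (SE 0.07), and it rose by 0.90 (SE 0.07) in unstimulated cells. Fads2, the delta-6 desaturase, rose by 2.04 and 1.57, and Acsl3 by 0.58 and 0.49. Lpcat2, which makes platelet-activating factor, fell by 0.72 in stimulated cells (SE 0.15, adjusted p = 0.00154) and was at 0.02 in unstimulated cells (SE 0.16, adjusted p = 0.948). The interaction was not called for Lpcat2 (-0.74, SE 0.21, adjusted p = 0.373).

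Receptors moved both ways. Of 8 tested, 4 rose and 3 fell with MSDC in stimulated cells (2 rose without replicate 2 of Poly(I:C) with MSDC), and 3 rose and 3 fell in unstimulated cells. Among all tested genes 12.5% were higher and 13.6% lower in stimulated cells, and 11.1% and 12.4% in unstimulated cells. Ptger2, a prostaglandin E2 receptor, had 8.58 and 8.11 TPM in Poly(I:C) with MSDC against 3.37 and 3.51 TPM in Poly(I:C) with vehicle, and rose by 1.26 (SE 0.12) there and by 1.16 (SE 0.12) in unstimulated cells. Ptgir, the prostacyclin receptor, was the most abundant receptor of the list in vehicle alone, with 82.7 and 83.2 TPM in Poly(I:C) with MSDC against 159.3 and 166.8 TPM in Poly(I:C) with vehicle, and fell by 1.01 (SE 0.06) there and by 1.07 (SE 0.06) in unstimulated cells. Cysltr1, a receptor of cysteinyl leukotrienes, was lower with MSDC, where Ltc4s was higher: it had 5.68 and 5.79 TPM in Poly(I:C) with MSDC, 9.79 and 12.0 TPM in Poly(I:C) with vehicle, 1.65 and 1.60 TPM in MSDC alone and 5.24 and 4.60 TPM in vehicle alone. It fell with MSDC by 0.96 (SE 0.13) in stimulated and by 1.56 (SE 0.16) in unstimulated cells, and rose with Poly(I:C) by 1.81 (SE 0.16) in MSDC and by 1.21 (SE 0.13) in vehicle. Ptafr, the receptor of platelet-activating factor, fell with MSDC by 1.98 and 2.02 and rose with Poly(I:C) by 0.91 and 0.87.

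Of 5 tested transporters 1 rose and 1 fell with MSDC in each setting, where 26.1% of all tested genes were called in stimulated cells and 23.5% in unstimulated cells. Slco2b1, an organic anion carrier, had 117.9 and 119.5 TPM in Poly(I:C) with MSDC against 24.1 and 25.8 TPM in Poly(I:C) with vehicle, and rose by 2.24 (SE 0.07) there and by 1.97 (SE 0.07) in unstimulated cells. Abcc1, the exporter of leukotriene C4, fell by 0.68 and 0.63. Abcc4, which can export prostaglandins, did not pass the test with MSDC (0.08, SE 0.10, and -0.17, SE 0.10). Dpep2, a dipeptidase that can turn leukotriene D4 into E4, fell by 0.56 and 0.35. Of 10 tested genes of breakdown 3 rose and 3 fell with MSDC in stimulated cells (1 rose without replicate 2 of Poly(I:C) with MSDC), and 2 rose and 3 fell in unstimulated cells (1 rose without vehicle replicate 1, MSDC replicate 1 or MSDC replicate 2), against the same background. Cyp4f18, a hydroxylase of leukotriene B4 in mouse, fell by 2.20 and 2.25 with MSDC, to 5.19 and 5.07 TPM in Poly(I:C) with MSDC against 21.7 and 24.6 TPM in Poly(I:C) with vehicle. Its relative Cyp4f16 rose by 0.73 and 0.73, and reads of this gene family could be split between copies. Ephx1, the microsomal epoxide hydrolase, fell by 1.35 and 1.26, and Ephx2, the soluble one, rose by 1.44 in stimulated cells (SE 0.32, adjusted p = 0.00273), a call lost without replicate 2 of Poly(I:C) with MSDC (1.05, adjusted p = 0.0649).

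**Figure D4:**
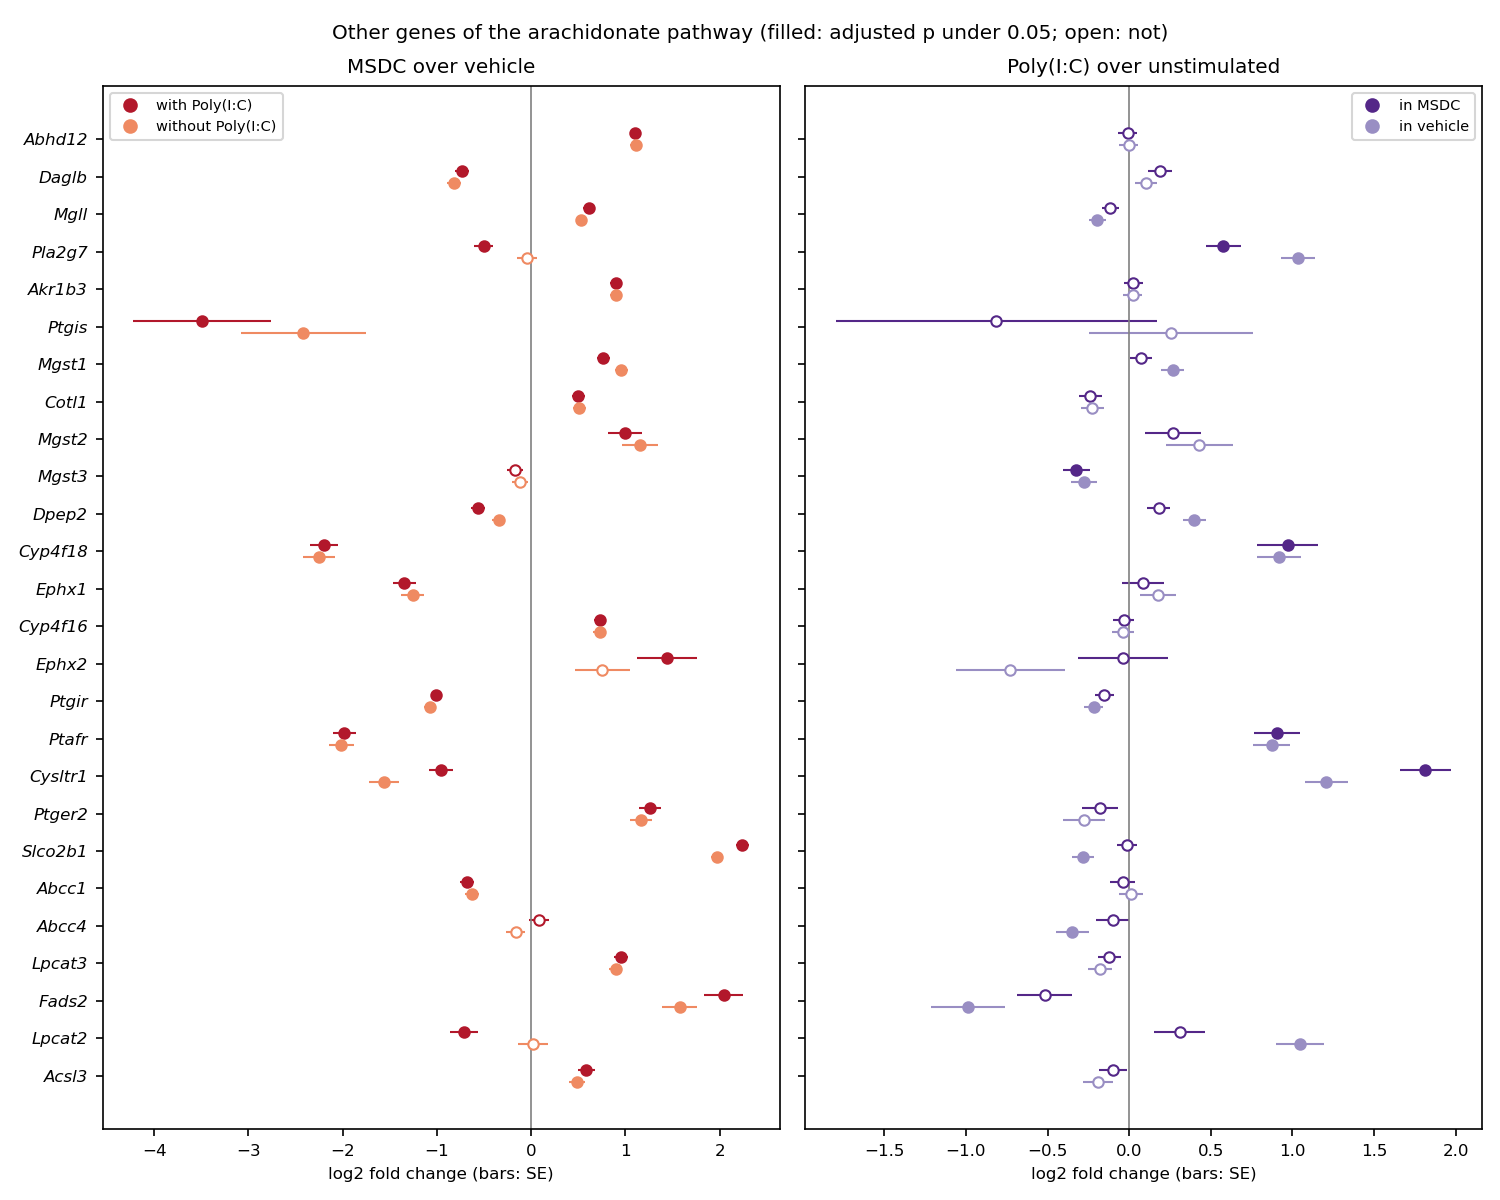
Log2 fold changes with SE of 26 further genes of arachidonate metabolism for MSDC over vehicle (left) and Poly(I:C) over unstimulated cells (right), filled where the adjusted p was under 0.05. Slco2b1 and Fads2 lie farthest to the right for MSDC (2.24 and 2.04 with Poly(I:C)), and Ptgis, Cyp4f18 and Ptafr farthest to the left (-3.49, -2.20 and -1.98).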

How the data were processed

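RNA was measured in 8 libraries of cultured mouse alveolar macrophages, 2 per group. The deposited table gives an expected count, a TPM and an FPKM per gene and library. The expected counts deposited by the authors are read counts per the file headers, not scaled to depth, with 5.95 to 7.19% of values per library not whole, though all 80 counts of the genes described were whole. The TPM values deposited by the authors are scaled to gene length and library and are used here for levels. The FPKM values deposited by the authors were left out. Per the submitters' processing notes, Bowtie2 2.3.4, TopHat2 2.1.1 and Cuffdiff were among the tools and GRCm38 (mm10) was the build, while the counting, its strand setting and the annotation are not given in the sources used here.

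Counts were rounded, genes filtered with filterByExpr (minimum count 10) and scaled by TMM (factors 0.985 to 1.027). The main test was edgeR's quasi-likelihood test with a single model of the 4 groups over every library, two-sided (R 4.3.3 with edgeR 4.0.16; common dispersion 0.00383 on 4 residual degrees of freedom), with Benjamini-Hochberg adjustment within each of the comparisons. Each SE is the absolute change over the square root of F, from which 95% intervals follow. A floor of 3 counts is 0.102 to 0.104 CPM, which covers counting error only. No replicate pair agreed within sampling noise. Alternatives were DESeq2 1.42.0, limma 3.58.1 on log2(TPM + 1) and log2(TPM + 0.1), scaling by totals, no filter, a replicate block, the 2 groups alone and leaving out each library. Replicate numbers are not stated to pair the samples. The correlations of replicate differences were -0.03 to 0.07, which cannot exclude a pairing, as each difference rests on single libraries.

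The genes, lists and tests were chosen with earlier results of these data known. All 10 genes are described, and from each further list up to 4 called genes with the smallest p are named. Alox12, Alox15 and the changes of the alveolar macrophage markers were added after their values were seen. Promoter windows are from RefSeq, GRCm38.p6, which held 9 of the 10 genes. Gene identifiers matched RefSeq for 99.3%, and 23 symbols turned into dates were repaired. The procedure was also run on counts simulated with the spread of the main fit. Such a run cannot test that spread or whether the libraries of a group are technical replicates.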

Additional observations from a re-analysis of the deposited data

How the results depend on the processing

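The rises of Ptges, Hpgds and Ltc4s with MSDC and the falls of Ptgs1 and Alox5ap kept their call under every alternative run, with and without Poly(I:C). Over all alternatives, 721 values of the 10 genes stayed on their side of the threshold, 14 lost a call and 5 gained one. The 19 changes concern Tbxas1, Alox5 and Lta4h, and the cause was not tested. With Poly(I:C), 3 of the genes fell with MSDC under DESeq2, under scaling by totals and with the 2 groups alone. With 1 library left out, the number that fell ranged from 2 to 3 for MSDC with Poly(I:C), 3 to 5 for MSDC without Poly(I:C), 4 to 5 for Poly(I:C) in vehicle and 0 to 1 for Poly(I:C) in MSDC, while 3 rose with MSDC each time. With the replicate block, though the numbers are not stated to pair the samples, 4 of the genes fell with Poly(I:C) in vehicle, since Tbxas1 lost its call (-0.20, adjusted p = 0.0616). That call was also lost with the 2 groups alone (-0.20, adjusted p = 0.13).

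Over all tested genes, the 174 lower with Poly(I:C) in MSDC became 298 with no filter and 415 with the 2 groups alone, and the 477 lower with Poly(I:C) in vehicle became 867 with scaling by totals (45.7% of calls higher, against 64.7%) and 257 with the 2 groups alone, and limma gave 50.5% higher on log2(TPM + 1) and 631 of 1261 on log2(TPM + 0.1). With scaling by totals 67.7% of calls were higher for Poly(I:C) in MSDC, against 76.3%. For the interaction the 14 higher and 12 lower became 64 and 52 with no filter, 23 and 24 with DESeq2 and 3 and 2 with limma on log2(TPM + 0.1). They became 7 higher with limma on log2(TPM + 1) (28.0% of calls) and 4 lower with scaling by totals, where 77.8% of calls were higher, against 53.8%.

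With 1 library left out, MSDC with Poly(I:C) gave 1027 to 1714 higher and 1126 to 1829 lower, MSDC without Poly(I:C) 819 to 1331 and 1016 to 1559, Poly(I:C) in MSDC 365 to 725 and 51 to 332, Poly(I:C) in vehicle 605 to 979 and 243 to 667, and the interaction 3 to 62 and 2 to 39. A group left with 1 library is assumed to vary like the others. Ptgs2, at 13 to 38 counts, is limited by depth. Among the further genes named, several calls with Poly(I:C) were lost without at least 1 library: those of Mgll, Mgst1, Mgst3, Ptgir, Slco2b1, Abcc4 and Fads2 in vehicle and of Pla2g7, Mgst3 and Cyp4f18 in MSDC.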
